A study of Mus musculus with 5 samples.

Results

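*Pecam1*, *Cdh5*, *Emcn*, *Cd34*, *Egfl7*, *Robo4*, *Ly6c1*, *Ly6a*, *Mmrn2* and *Podxl* are genes that endothelial cells express along most of the vascular tree, and their RNA was measured here in brain microvascular fragments of hyperglycemic and normal mice. The genes were chosen by name and found through the Ensembl identifier that the NCBIM37 annotation gives for each symbol. All 10 were found among the 34615 gene symbols of the files, and all 10 were among the 16286 symbols that were tested because their FPKM averaged 1 or more. FPKM is the number of sequenced fragments per kilobase of transcript, scaled to the mapped fragments of the library, so it can be compared between genes. All 10 genes had a lower mean in Ins2-AKITA than in WT mice, by between 1.17-fold for *Podxl* and 2.2-fold for *Ly6c1*, and none of these differences passed the adjusted threshold.

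The fragments came from 3 WT and 2 Ins2-AKITA mice, 1 library per mouse. All 5 were males on a C57BL6 background, aged between 26 and 38 weeks. Ins2-AKITA mice carry the Akita mutation in 1 of their copies of the insulin 2 gene, lose insulin-producing beta cells and become hyperglycemic; the WT mice were littermates without the mutation. The fragments had been pulled out of digested brain with magnetic beads coated with an antibody to PECAM1, so *Pecam1* is the gene of the protein used for capture, and pericytes, smooth muscle cells and astrocyte end-feet attached to the vessels were carried along.

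Endothelial cells line all blood vessels and hold together through adherens junctions built on VE-cadherin, the product of *Cdh5*, and through homophilic contacts of PECAM1. Their luminal surface is covered by sialomucins, heavily glycosylated proteins such as CD34, podocalyxin and endomucin. In the brain the same cells form the blood-brain barrier, and genes like those described here serve to recognise endothelium whatever its organ.

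The depth of the libraries was low. It is not listed in the files and was estimated from the steps between low FPKM values at 1166915, 1318570 and 2848676 fragments in WT mice 1, 2 and 3 and at 1126574 and 1286046 in Ins2-AKITA mice 1 and 2. Between 97.3% and 97.7% of the low values of genes with 1 transcript fell on whole fragments, to within 0.05 of a fragment. Genes of small and ribosomal RNA held 96.7%, 96.6% and 58.0% of all FPKM in WT, against 89.6% and 40.6% in Ins2-AKITA mice. Tests were run with limma on log2(FPKM + 1) over all 16286 genes, and a difference on this scale understates the change of genes with a low FPKM. Exact two-sided permutation tests over the 10 splits of the 5 mice could not give a p below 0.1.

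Sequence bears on how well some of the genes can be told apart. *Ly6c1* and *Ly6a* belong to a family of similar genes on chromosome 15, and *Ly6c1* has a close relative, *Ly6c2*, whose coding sequence is 396 bases long like its own and identical at 387 of them (97.7%). The first 150 coding bases of both, from the GENCODE transcripts of NCBIM37 and with the 6 differing bases in capitals, are shown because a read from the stretch after the last capital could come from either gene.
Ly6c1: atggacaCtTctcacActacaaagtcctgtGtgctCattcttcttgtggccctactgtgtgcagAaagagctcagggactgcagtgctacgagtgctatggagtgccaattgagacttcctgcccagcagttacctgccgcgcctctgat
Ly6c2: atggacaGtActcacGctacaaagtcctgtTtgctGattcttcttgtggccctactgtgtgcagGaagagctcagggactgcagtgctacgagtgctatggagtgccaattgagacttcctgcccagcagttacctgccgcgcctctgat
Of the 791 stretches of 50 bases in the *Ly6c1* transcript, 252 (31.9%) also occur in *Ly6c2*. The share was 4.42% for *Ly6a*, with *Ly6i* and *Ly6c2*, and 6.20% for *Egfl7*, with *Gm20532*. It was 0 for the other 7 genes.

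*Egfl7* carries a microRNA gene, *Mir126*, at chr2:26446877-26446949 on the plus strand of NCBIM37. It lies in an intron of 10 and in an exon of 1 of the 11 *Egfl7* transcripts that span it. The mature microRNA miR-126a-3p, which acts in endothelial cells, is shown from RefSeq (GRCm38.p6) with its seed, bases 2 to 8, in capitals.
mmu-miR-126a-3p: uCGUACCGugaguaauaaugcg
*Mir126* was listed at an FPKM of 0 in all 5 mice. Mature microRNAs are too short for libraries of this kind, so this says nothing about their level.

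*Pecam1* (ENSMUSG00000020717, chr11:106515531-106611942 of NCBIM37, minus strand, up to 16 exons) encodes a junctional adhesion protein of endothelial cells, platelets and leukocytes. Its FPKM was 92.8, 91.0 and 65.8 in WT mice 1, 2 and 3, against 63.1 and 58.3 in Ins2-AKITA mice 1 and 2. The Ins2-AKITA mice were both below the WT mice, but the gap to WT mouse 3 was small against the distance between that mouse and the other WT mice. The mean was 83.2 ± 15.1 (SD, n = 3) in WT and 60.7 ± 3.41 (SD, n = 2) in Ins2-AKITA mice, a difference of -0.43 in log2(FPKM + 1) with a standard error of 0.22 (limma p = 0.091 before and 0.90 after Benjamini-Hochberg adjustment, exact permutation p = 0.2). A U3 small nucleolar RNA gene lies within *Pecam1* on the opposite strand, at an FPKM of 111, 195 and 25.6 in WT, against 86.4 and 0 in Ins2-AKITA mice. The library kit keeps the strand, but whether the counting used it is not given in the sources used here.

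*Cdh5* (ENSMUSG00000031871, chr8:106625525-106668402, plus strand, 12 exons in its 1 transcript) encodes VE-cadherin, the cadherin of endothelial adherens junctions. Its FPKM was 32.3, 44.5 and 30.9 in WT, against 25.0 and 21.9 in Ins2-AKITA mice, and the genotypes did not overlap. These values rest on an estimated 142, 221 and 331 fragments in WT and 106 in each Ins2-AKITA mouse. The mean was 1.53-fold lower in Ins2-AKITA mice, a log2 difference of -0.58 (standard error 0.23, limma p = 0.045, adjusted p = 0.90, exact permutation p = 0.2). The 95% Poisson interval of Ins2-AKITA mouse 1, from 20.5 to 30.3 FPKM, overlapped that of WT mouse 3, from 27.7 to 34.4. Such intervals cover counting error only, and whether these neighbours differ beyond it was not tested.

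Among the sialomucin genes, *Emcn* and *Podxl* spread most among the WT mice of all 10 genes, with coefficients of variation of 36.4% and 35.5%. *Cd34* (ENSMUSG00000016494, chr1:196765015-196787486, plus strand) encodes a surface sialomucin shared by endothelium and blood progenitors. It had an FPKM of 23.0, 28.5 and 19.8 in WT, against 21.8 and 15.1 in Ins2-AKITA mice, with Ins2-AKITA mouse 1 inside the WT range. The log2 difference was -0.36 (standard error 0.26, limma p = 0.22, adjusted p = 0.90, exact permutation p = 0.4). An antisense RNA gene, *Gm16897*, overlaps *Cd34* and was between 0.343 and 3.68 FPKM.

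*Podxl* (ENSMUSG00000025608, chr6:31469488-31513981, minus strand) encodes podocalyxin, a relative of CD34 that also covers the foot processes of kidney podocytes. Its FPKM was 48.0, 87.0 and 50.3 in WT, against 65.9 and 40.1 in Ins2-AKITA mice. The higher Ins2-AKITA value exceeded those of WT mice 1 and 3, and WT mouse 2 alone raised the WT mean to 61.8 ± 21.9 (SD, n = 3). Of the 10 genes it had the smallest log2 difference, -0.21 (standard error 0.34, limma p = 0.57, adjusted p = 0.94, exact permutation p = 0.8), and without WT mouse 2 the difference was 0.065.

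*Emcn* (ENSMUSG00000054690, chr3:137004031-137095149, plus strand) encodes endomucin, a sialomucin best known from veins and capillaries. Its FPKM was 17.3, 30.1 and 16.2 in WT, against 17.1 and 9.80 in Ins2-AKITA mice. As for *Podxl*, WT mouse 2 was far above the others and Ins2-AKITA mouse 1 was level with WT mice 1 and 3. The log2 difference of -0.61 had a standard error of 0.36 (limma p = 0.14, adjusted p = 0.90, exact permutation p = 0.5), and without Ins2-AKITA mouse 2 it was -0.24.

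Among the genes of secreted and guidance proteins, *Egfl7* (ENSMUSG00000026921, chr2:26435534-26448640, plus strand, 21 transcripts) encodes a matrix protein that endothelial cells secrete around growing vessels. Its FPKM was 109, 101 and 72.4 in WT, against 87.2 and 49.7 in Ins2-AKITA mice. The genotypes overlapped, because WT mouse 3 was below Ins2-AKITA mouse 1. The log2 difference was -0.49 (standard error 0.31, limma p = 0.16, adjusted p = 0.90, exact permutation p = 0.3), and without Ins2-AKITA mouse 2 it was -0.088. *Gm20532*, which overlaps *Egfl7* on the same strand, was at 6.45 FPKM in Ins2-AKITA mouse 1 and listed at 0 in the other 4 mice.

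*Mmrn2* (ENSMUSG00000041445, chr14:35188690-35217473, plus strand, 7 exons in its 1 transcript) encodes multimerin 2, an endothelial matrix protein that binds the receptors CLEC14A and CD93. Its FPKM was 16.2, 20.2 and 14.7 in WT, against 16.5 and 8.59 in Ins2-AKITA mice, from an estimated 70, 99 and 155 fragments in WT and 69 and 41 in Ins2-AKITA. Ins2-AKITA mouse 1 was again in the WT range and Ins2-AKITA mouse 2 well under it. The log2 difference was -0.46 (standard error 0.32, limma p = 0.20, adjusted p = 0.90, exact permutation p = 0.5), but without Ins2-AKITA mouse 2 it was -0.030.

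*Robo4* (ENSMUSG00000032125, chr9:37209482-37221608, plus strand) encodes an endothelial receptor of the Roundabout family that binds UNC5B and stabilises vessels. Its FPKM was 13.2, 11.3 and 10.99 in WT, against 7.89 and 5.30 in Ins2-AKITA mice. The WT mice lay close together and both Ins2-AKITA mice were below them, 1.80-fold on the means of 11.8 ± 1.23 (SD, n = 3) and 6.59 ± 1.83 (SD, n = 2). The log2 difference was -0.77 (standard error 0.27, limma p = 0.027, adjusted p = 0.90, exact permutation p = 0.1, the smallest it can be).

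*Ly6c1* (ENSMUSG00000079018, chr15:74875447-74879260, minus strand, 4 exons in its 1 transcript) encodes a small lipid-anchored surface protein of endothelial cells and lymphocytes. Its FPKM was 103, 86.1 and 56.7 in WT, against 37.5 and 36.9 in Ins2-AKITA mice. The genotypes did not overlap, and the Ins2-AKITA mice were nearly equal while the WT mice spread 1.82-fold. The mean was 82.0 ± 23.6 (SD, n = 3) in WT and 37.2 ± 0.458 (SD, n = 2) in Ins2-AKITA mice, 2.2-fold lower. This was the largest difference of the 10 genes, -1.08 in log2(FPKM + 1) with a 95% confidence interval from -1.75 to -0.40 (standard error 0.28, limma p = 0.0075, adjusted p = 0.90, exact permutation p = 0.2).

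An estimated 74, 70 and 99 fragments lay behind the WT values of *Ly6c1* and 26 and 29 behind the Ins2-AKITA values. The 95% Poisson intervals of the Ins2-AKITA mice, 24.5 to 54.9 and 24.7 to 52.9 FPKM, were below those of WT mice 1 and 2, which began at 81.0 and 67.1, and overlapped that of WT mouse 3, which began at 46.0. Reads shared with *Ly6c2* could have been assigned to either gene, but *Ly6c2* (chr15:74938590-74942114) was listed at 0 in 4 mice and at 1.55 FPKM in Ins2-AKITA mouse 1.

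*Ly6a* (ENSMUSG00000075602, chr15:74825308-74828064, minus strand) encodes Sca-1, another lipid-anchored protein of this family, found on endothelial and stem cells. The gene lies 47382 bases from *Ly6c1*. Its FPKM was 66.4, 68.8 and 70.5 in WT, against 50.8 and 54.0 in Ins2-AKITA mice. It had the tightest WT values of the 10 genes, with a coefficient of variation of 2.99%, and both Ins2-AKITA mice were below them (log2 difference -0.38, standard error 0.17, limma p = 0.059, adjusted p = 0.90, exact permutation p = 0.1). The WT values rested on an estimated 46, 54 and 119 fragments. Their 95% Poisson intervals, 48.6 to 88.5, 51.6 to 89.7 and 58.4 to 84.3 FPKM, were far wider than the spread of the WT values. The small WT spread is thus less than counting error alone would give. Only 34 and 41 fragments stood behind the Ins2-AKITA values, whose Poisson intervals of 35.1 to 70.9 and 38.7 to 73.1 FPKM included all 3 WT values.

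Of 11 *Ly6* family genes on chromosome 15, 4 were above 0 in all mice, namely *Ly6a*, *Ly6c1*, *Ly6e* and *Ly6h*, and 7 were listed at 0 in at least 4 of the 5 mice. *Ly6e* was at 61.7, 72.1 and 62.8 FPKM in WT, against 59.0 and 40.0 in Ins2-AKITA mice. *Ly6h* was at 56.2, 56.8 and 41.8 FPKM in WT, against 50.5 and 43.2 in Ins2-AKITA mice, within the WT range. The log2 differences were -0.42 (standard error 0.22) for *Ly6e* and -0.13 (standard error 0.22) for *Ly6h*, against -1.08 for *Ly6c1*, and adjusted p from limma was 0.90 and 0.94 for the former genes.

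**Figure D1:**
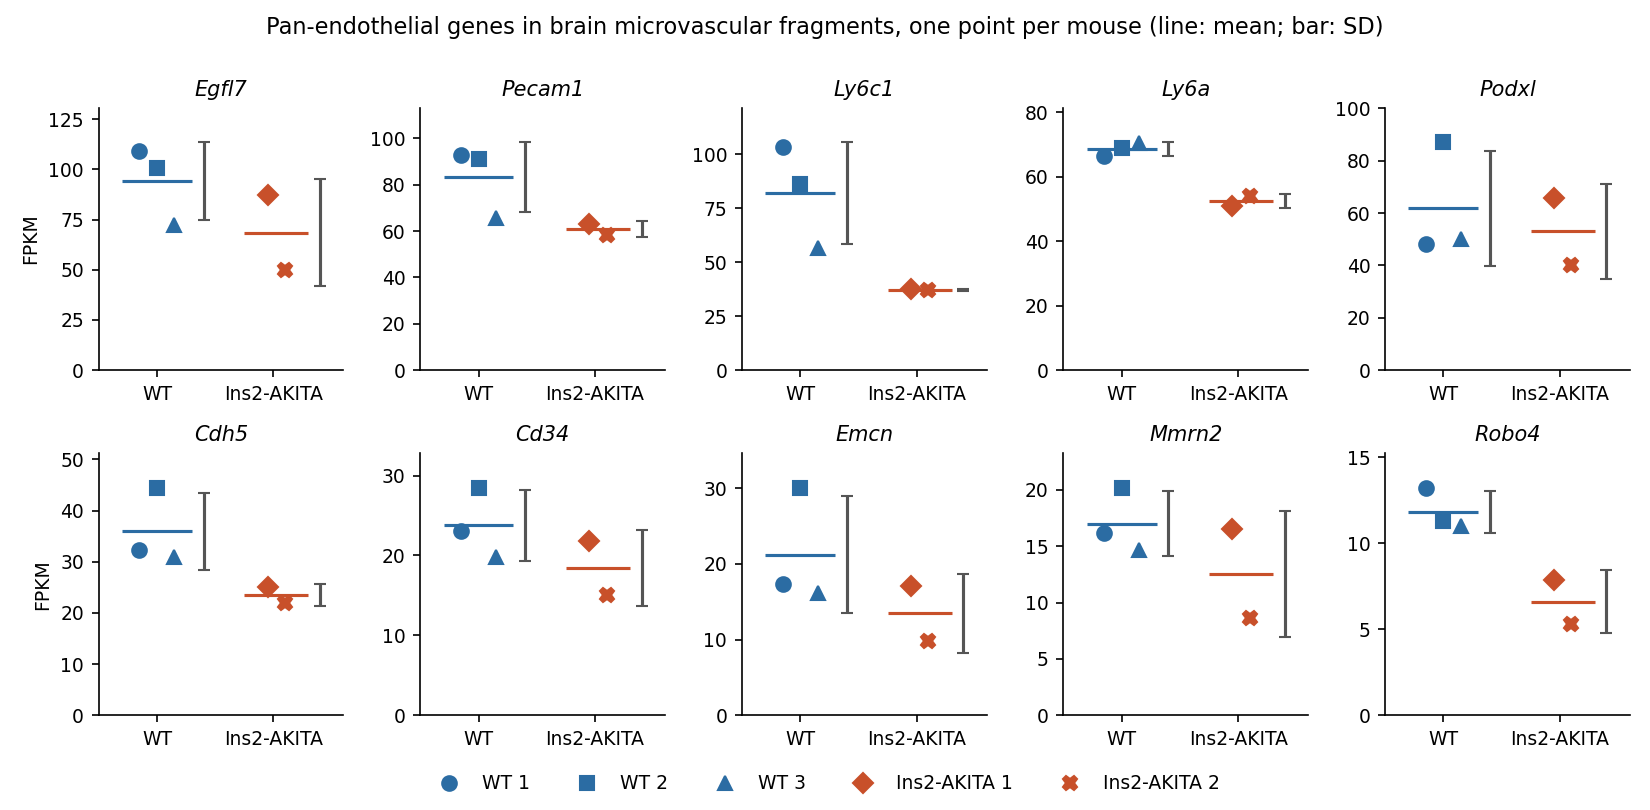
FPKM of each of the 10 genes (vertical axes, each from 0) in the 3 WT and 2 Ins2-AKITA mice, 1 point per mouse, with the mean as a line and the SD as a bar. *Ly6c1* and *Robo4* show the largest differences on the log2 scale, and Ins2-AKITA mouse 1 lies within the WT range for *Egfl7*, *Podxl*, *Cd34*, *Emcn* and *Mmrn2*.

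The plot of FPKM by mouse also gives the order of the levels. In WT mice *Egfl7* was highest at a mean of 94.2 FPKM, 7.95 times the lowest, *Robo4*, at 11.8. *Egfl7*, *Pecam1* (83.2), *Ly6c1* (82.0), *Ly6a* (68.6) and *Podxl* (61.8) formed an upper group, in which each neighbour differed from the next by less than the larger SD of the pair. *Podxl* and *Cdh5* (35.9) were separated in all 5 mice, by 1.18 times the larger SD, and so were *Cdh5* and *Cd34* (23.8), by 1.62 times. The lower neighbours *Cd34*, *Emcn* (21.2) and *Mmrn2* (17.0) again differed by less than an SD, while *Mmrn2* exceeded *Robo4* in all 5 mice, by 1.80 times the larger SD. In Ins2-AKITA mice *Ly6c1*, at 37.2 FPKM, stood behind both *Podxl* at 53.0 and *Ly6a* at 52.4, which had also changed places, and the order of the other 7 genes was the same.

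Read over all 10 genes, the mean in log2(FPKM + 1) was lower in Ins2-AKITA mice for 10 of 10, against 53.5% of all tested genes. The median difference of the 10 genes was -0.48, that of all tested genes -0.03. At an adjusted p under 0.05, limma called 0 of the 10 genes, and 0.0246% of all tested genes. An unadjusted p under 0.05 was reached by 3 of 10, *Ly6c1*, *Robo4* and *Cdh5*, against 4.46% of all genes in either direction and 2.93% in the lower direction. Both Ins2-AKITA mice were below all WT mice for 5 of 10, *Pecam1*, *Cdh5*, *Robo4*, *Ly6c1* and *Ly6a*, against 10.3% of all genes, and above all WT mice for none of the 10, against 9.24%. The 10 genes come from the same cells and the same 5 libraries, so they do not count as 10 separate observations of the genotype. In such bulk samples fewer endothelial cells and less RNA per endothelial cell cannot be told apart.

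**Figure D2:**
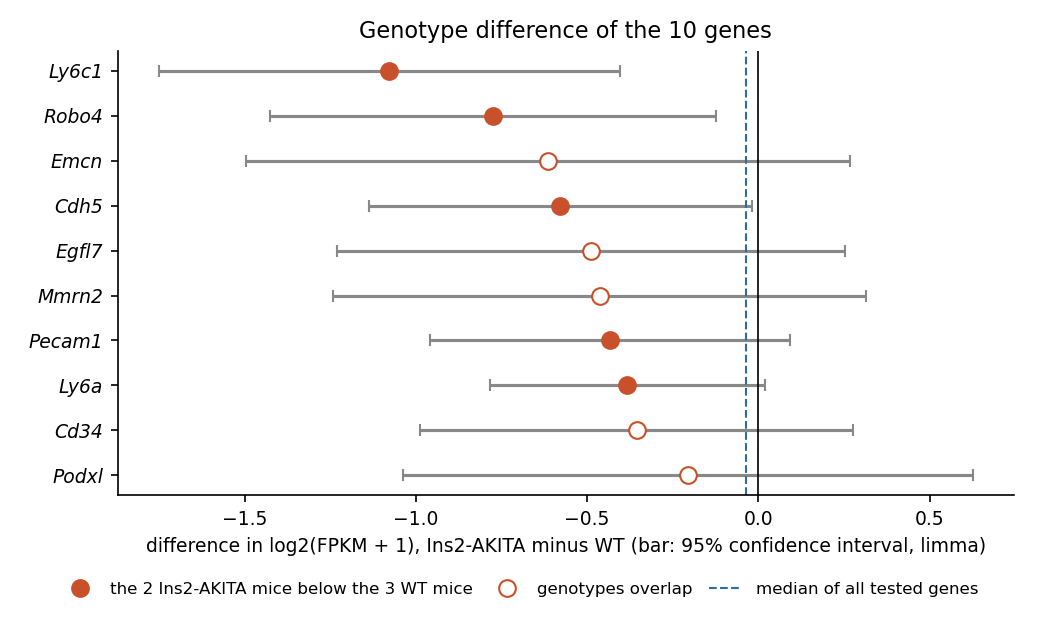
Difference in log2(FPKM + 1), Ins2-AKITA minus WT (horizontal axis), for each of the 10 genes, with its 95% confidence interval from limma; filled points mark genes whose genotypes do not overlap. All 10 points lie below 0 and left of the dashed median of all tested genes at -0.03, and the intervals of *Ly6c1*, *Robo4* and *Cdh5* leave out 0.

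As the plot of differences shows, the intervals were wide, from about -1.50 to 0.27 for *Emcn* and from -1.04 to 0.63 for *Podxl*. For 7 of the 10 genes the interval included both 0 and the difference of *Robo4*, -0.77. The direction itself depended on the scaling: when every mouse was rescaled to the same FPKM sum (TPM), of which small and ribosomal RNA genes held between 40.6% and 96.7%, the median difference of all genes became 1.07 and all 10 genes were higher in Ins2-AKITA mice, with a median of 1.02. Relative to the median of the genes above 0 in all mice, and with no constant before the logarithm, FPKM and TPM give the same values by construction. The reason is that TPM divides all genes of a mouse by a common factor. These values ran from -1.08 for *Ly6c1* to -0.19 for *Podxl*.

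The mice differed from one another across the 10 genes. Relative to the WT mean of each gene, the median over the 10 genes was 96.9%, 114% and 82.3% in WT mice 1, 2 and 3, and 78.3% and 56.9% in Ins2-AKITA mice 1 and 2. Ins2-AKITA mouse 2 was thus the low one. It was the lowest of the 5 mice for 9 genes, the exception being *Ly6a*, and below all WT mice for 10. Ins2-AKITA mouse 1 was below all WT mice for 5 genes and reached 107% of the WT mean for *Podxl*. In 8 of the 10 genes the lowest WT value was that of mouse 3, whose library was also the most deeply sequenced. Summed over the 10 genes, FPKM was 522, 568 and 408 in WT, against 393 and 300 in Ins2-AKITA mice. The median difference of the 10 genes was -0.31 without Ins2-AKITA mouse 2 and -0.78 without Ins2-AKITA mouse 1.

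**Figure D3:**
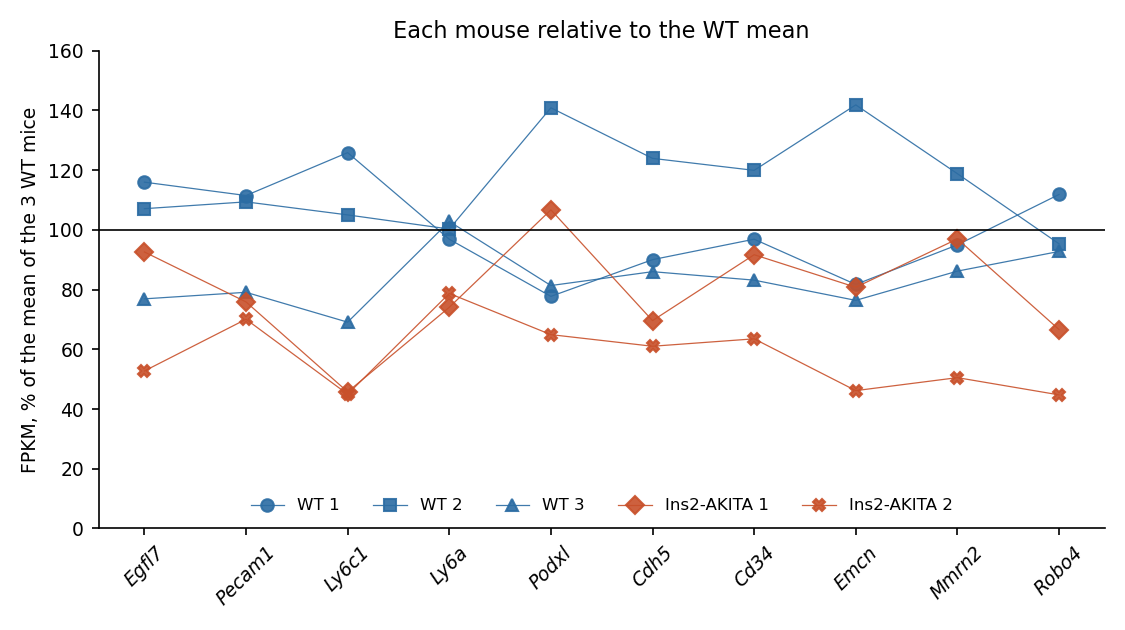
FPKM of each of the 10 genes in each mouse as a percentage of the mean of the 3 WT mice (vertical axis), with the genes in order of their WT level and the points of a mouse joined only to guide the eye. Ins2-AKITA mouse 2 stays below the WT mice throughout, while Ins2-AKITA mouse 1 joins it for *Ly6c1*, at 45.8% of the WT mean, and lies near 100% for *Podxl* and *Mmrn2*.

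To compare the genes with each other inside a mouse, each was divided by *Pecam1*. *Ly6c1*, also the gene with the largest difference, was the only one of the 9 ratios in which the genotypes did not overlap. The share of all genes without overlap in such a ratio was not computed. For FPKM itself, both Ins2-AKITA mice were below all WT mice in 10.3% of all genes and above them in 9.24%. The ratio of *Ly6c1* to *Pecam1* was 1.11, 0.946 and 0.861 in WT, against 0.594 and 0.633 in Ins2-AKITA mice (exact permutation p = 0.1, the smallest possible). *Robo4* to *Pecam1* was 0.143, 0.124 and 0.167 in WT, against 0.125 and 0.0909 in Ins2-AKITA mice (exact permutation p = 0.3). *Cdh5* to *Pecam1* was 0.349, 0.489 and 0.469 against 0.396 and 0.376 (exact permutation p = 0.4). For the remaining 6 genes the exact permutation p was between 0.5 and 1.0. Because PECAM1 is the capture antigen, *Pecam1* is not an independent reference. *Ly6c1* to *Ly6a* did not overlap either, at 1.55, 1.25 and 0.803 in WT, against 0.739 and 0.683 in Ins2-AKITA mice (exact permutation p = 0.2), but *Ly6c1* to *Ly6e* did, at 1.67, 1.19 and 0.902 against 0.636 and 0.922 (exact permutation p = 0.3).

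The 10 proteins act with others, and 27 genes of their binding partners, regulators and close relatives were followed. Of 22 that were tested, 16 had a lower and 6 a higher mean in Ins2-AKITA mice, against 53.5% lower among all tested genes, with a median log2 difference of -0.27. None passed the adjusted threshold in limma (smallest adjusted p = 0.90) and none had an unadjusted p under 0.05. In 5 of the 22 both Ins2-AKITA mice were below all WT mice, against 10.3% of all genes.

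Among the receptors of multimerin 2, *Clec14a* was at 6.75, 10.54 and 5.53 FPKM in WT, against 7.20 and 4.87 in Ins2-AKITA mice. *Cd93* was at 8.23, 12.2 and 11.7 against 10.2 and 7.35. Both therefore overlapped between the genotypes, with log2 differences of -0.27 (standard error 0.35) and -0.26 (standard error 0.29). *Unc5b*, which encodes the ROBO4 partner, was at 7.62, 10.1 and 3.87 FPKM in WT, against 5.87 and 5.003 in Ins2-AKITA mice, a log2 difference of -0.27 (standard error 0.41), while the values of *Robo4* itself did not overlap. Whether the difference of *Robo4* differs from that of *Unc5b* was not tested.

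*Ptprb*, the gene of the phosphatase VE-PTP that associates with VE-cadherin, was at 38.2, 66.3 and 46.9 FPKM in WT, against 44.7 and 33.2 in Ins2-AKITA mice (log2 difference -0.34, standard error 0.28). The catenins, which bind cadherins and are not limited to endothelium, did not have lower means. The log2 difference was 0.27 (standard error 0.24) for *Ctnnb1*, 0.11 (standard error 0.18) for *Ctnna1*, 0.27 (standard error 0.23) for *Ctnnd1* and 0.07 (standard error 0.29) for *Jup*, and the genotypes overlapped in all 4. *Ctnnb1* was at 111, 164 and 167 FPKM in WT, against 165 and 185 in Ins2-AKITA mice. *Podxl2*, a relative of *Cd34* and *Podxl* that neurons also express, was at 105, 86.4 and 87.4 against 104 and 82.7.

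Other endothelial genes give the frame for the 10. Of 34 other genes of general endothelial identity, some of them also counted among the partners and relatives above, 28 had a lower mean in Ins2-AKITA mice. The median log2 difference of the 34 was -0.30. Their differences ran from -0.97 for *Ramp2*, the receptor activity-modifying protein for adrenomedullin, to 0.60 for *Ets2*, a transcription factor that is not limited to endothelium. *Ramp2* was at 33.1, 39.3 and 36.1 FPKM in WT, against 19.6 and 16.4 in Ins2-AKITA mice (standard error 0.20, adjusted p = 0.80 from limma). *Ets2* was at 29.1, 29.3 and 26.9 against 38.2 and 49.9 (standard error 0.20, adjusted p = 0.90 from limma). Neither gene overlapped between the genotypes.

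Of 18 genes of the blood-brain barrier endothelium 14 had a lower mean, with a median of -0.26, from -0.59 for the amino acid transporter gene *Slc7a5* to 0.24 for the lactate transporter gene *Slc16a1*. *Slc7a5* was at 48.4, 56.9 and 34.0 FPKM in WT, against 31.0 and 28.8 in Ins2-AKITA mice. *Slc16a1* was at 9.17, 17.5 and 11.3 against 15.2 and 14.1. Arterial genes had a median of -0.50, with 10 of 12 lower, and venous genes one of -0.30, with 6 of 7 lower. Over the 4 lists together, 55 of 68 genes were lower and the median was -0.29, and both Ins2-AKITA mice were below all WT mice for 15 genes, against 10.3% of all genes, and above them for 1, against 9.24%. None of the 68 passed the adjusted threshold in limma (smallest adjusted p = 0.80). At an unadjusted limma p under 0.05, 1 of the 68 was higher, against 249 of all 16286 genes. In the lower direction it was 5 of the 68, against 2.93% of all genes. Each mouse was also scaled to the geometric mean of the 34 general endothelial genes. The median of the 10 genes then moved from -0.48 to -0.16, while that of all genes moved to 0.26. Of the 10 genes, *Robo4* alone stayed without overlap between the genotypes. The share of all genes without overlap under this scaling is given in the closing section on processing.

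Markers of the other cells in the fragments moved with the mice as well. All 8 astrocyte genes had a higher mean in Ins2-AKITA mice, with a median log2 difference of 0.49 and 4 of 8 above all WT mice in both Ins2-AKITA mice, against 9.24% of all genes, and their summed FPKM was 2205, 2630 and 3063 in WT, against 3456 and 4089 in Ins2-AKITA mice. All 6 smooth muscle genes were lower, with a median of -0.60 and sums of 336, 394 and 335 against 271 and 222. In 4 of the 6 both Ins2-AKITA mice were below all WT mice, against 10.3% of all genes. A lower mean with an unadjusted limma p under 0.05 was reached by 3 of the 6, against 2.93% of all genes. Of the pericyte genes 8 of 11 were lower, with a median of -0.25 and sums of 275, 289 and 232 against 258 and 202. All 5 erythroid genes were lower, with a median of -1.09 and sums of 60.1, 67.7 and 35.1 against 32.4 and 25.1. In 1 of the 5 both Ins2-AKITA mice were below all WT mice, against 10.3% of all genes. The list holds *Hba-a1* with *Hba-a2* and *Hbb-b1* with *Hbb-b2*, and reads shared within these pairs were not examined. None of the genes in these lists passed the adjusted threshold in limma (smallest adjusted p = 0.80).

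Of the neuron genes 5 of 8 were higher, of the oligodendrocyte genes 4 of 8 and of the microglia genes 7 of 10, with medians of 0.21, 0.00 and 0.14, and 2 of 5 tested fibroblast genes were higher. The 4 genes of choroid plexus and ependyma had summed FPKM from 692 to 2054 in WT and of 1838 and 985 in Ins2-AKITA mice. PECAM1 is also found on platelets and leukocytes. Of 6 platelet genes 2 were tested. Both had a lower mean in Ins2-AKITA mice, with a median log2 difference of -0.85. In 1 of the 2 both Ins2-AKITA mice were below all WT mice, against 10.3% of all genes. The platelet genes summed to between 11.5 and 21.0 FPKM in WT and to 6.996 and 9.91 in Ins2-AKITA mice, also without overlap. *Ppbp* was at 0 in all mice, but *Itga2b* was between 1.14 and 10.3 FPKM. Leukocyte genes summed to between 14.2 and 22.6 FPKM in WT and to 16.3 and 13.1 in Ins2-AKITA mice, with *S100a8* at 0. Lymphatic genes summed to between 30.7 and 37.5 FPKM in WT and to 39.7 and 24.4 in Ins2-AKITA mice with *Ccl21a* at 0. Most of each sum was *Prox1*, between 10.3 and 12.9 FPKM, and *Pdpn*, between 10.8 and 23.8. Genes of peripheral or fenestrated endothelium, of which 2 of 7 were tested and both had a lower mean (median log2 difference -0.20), summed to between 18.4 and 22.9 and to 22.8 and 14.6. The part of cell composition in the differences of the 10 genes was not tested.

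**Figure D4:**
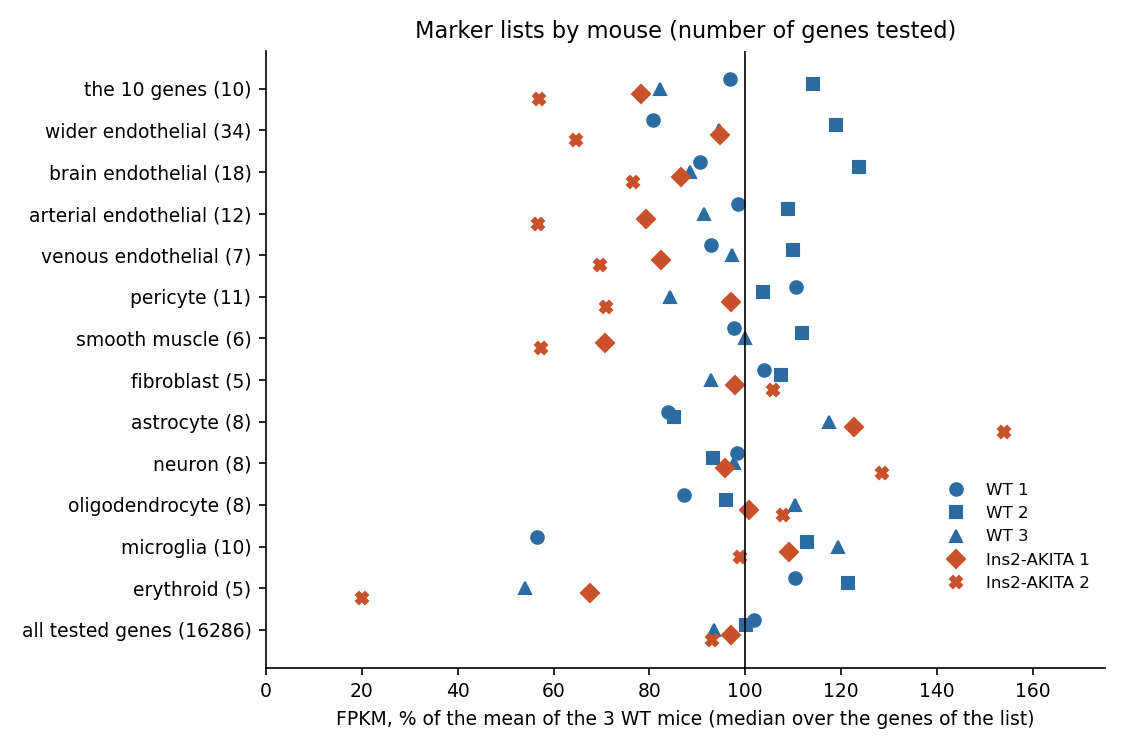
Median over the tested genes of each marker list of FPKM as a percentage of the mean of the 3 WT mice (horizontal axis), 1 point per mouse, with the number of tested genes in brackets. In Ins2-AKITA mouse 2 the 10 genes stand at 56.9% and the smooth muscle genes at 57.3%, the astrocyte genes at 154% and all tested genes at 93.0%.

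In the plot of marker lists by mouse, the 10 genes and the arterial genes took similar places, at 78.3% and 79.3% of the WT mean in Ins2-AKITA mouse 1 and at 56.9% and 56.8% in Ins2-AKITA mouse 2. The general endothelial genes were at 80.7%, 119% and 94.6% in WT, against 94.8% and 64.6% in Ins2-AKITA mice. For them Ins2-AKITA mouse 1 thus lay within the WT range. In that mouse the blood-brain barrier genes stood at 86.7% and the venous genes at 82.4%, both below all WT mice. The median of all tested genes was close to 100% in every mouse, between 93.0% and 102%.

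The genes whose pattern over the 5 mice was nearest to the mean of the 10 genes were sought among 8178 other genes with a mean FPKM of at least 10. Likeness was the root mean square difference of log2(FPKM + 1) after centring each gene on its own mean. The 5 nearest were *Endod1*, *Dohh*, *Gtpbp3*, *Ecscr* and *5330417C22Rik*, with differences from 0.033 to 0.055. Of these *Ecscr* is known as an endothelial surface gene, and it was at 13.4, 14.6 and 10.4 FPKM in WT, against 9.95 and 6.76 in Ins2-AKITA mice. *Dohh*, an enzyme gene used by all cells, was at 29.4, 33.3 and 25.7 against 23.2 and 16.8. Of 49 candidates in the other endothelial lists 3 were among the nearest 100 of all 8178, namely *Abcb1a*, *Erg* and *Mgp*. Among the 10 genes, *Cd34* lay closest to their mean, with 0.391% of the candidates closer, and *Ly6c1* farthest, with 32.6% closer. Each of the 10 genes is part of that mean, which draws it nearer, while the candidates are not. With 5 mice many genes come close by number alone, and the likeness is a description.

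Sequence near the start was available for 5 of the 10 genes, in 8 windows of 250 bases from RefSeq (GRCm38.p6). A window can reach past the first annotated base of its gene. Windows of the same gene can overlap, as those of *Ly6c1* do, so they are not 8 separate regions. The windows were searched on both strands for short cores of factor families that act in endothelium, GGAAG or CTTCC for ETS factors, TAAACA or TGTTTA for forkhead factors and ACAAT or ATTGT for SOX factors. ETS letters were in 7 of the 8 windows and in 64.1% of 32851 windows taken in the same way from all genes with an entry. Forkhead letters were in 1 of 8, against 12%, and SOX letters in 3 of 8, against 27.7%. The parts before the first annotated base are shown for *Ly6c1* and *Robo4*, the genes with the largest differences, with matches in capitals, at chr15:75048921-75049087 on the minus strand and chr9:37401722-37401901 on the plus strand.
Ly6c1 upstream: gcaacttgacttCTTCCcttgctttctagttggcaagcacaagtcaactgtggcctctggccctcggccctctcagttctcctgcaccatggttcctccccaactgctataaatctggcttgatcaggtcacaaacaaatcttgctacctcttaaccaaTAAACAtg
Robo4 upstream: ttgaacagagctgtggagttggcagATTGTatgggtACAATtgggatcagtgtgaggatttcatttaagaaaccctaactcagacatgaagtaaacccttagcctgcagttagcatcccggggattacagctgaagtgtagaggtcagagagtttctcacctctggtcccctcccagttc
The *Ly6c1* stretch held 1 ETS and 1 forkhead match and no SOX match, the *Robo4* stretch 2 SOX matches and neither of the others. These stretches are shorter than the windows that were counted. The full window of 250 bases held 2 ETS matches for *Robo4*, and a second *Ly6c1* window held 4. A match is no evidence that a factor binds.

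**Figure D5:**
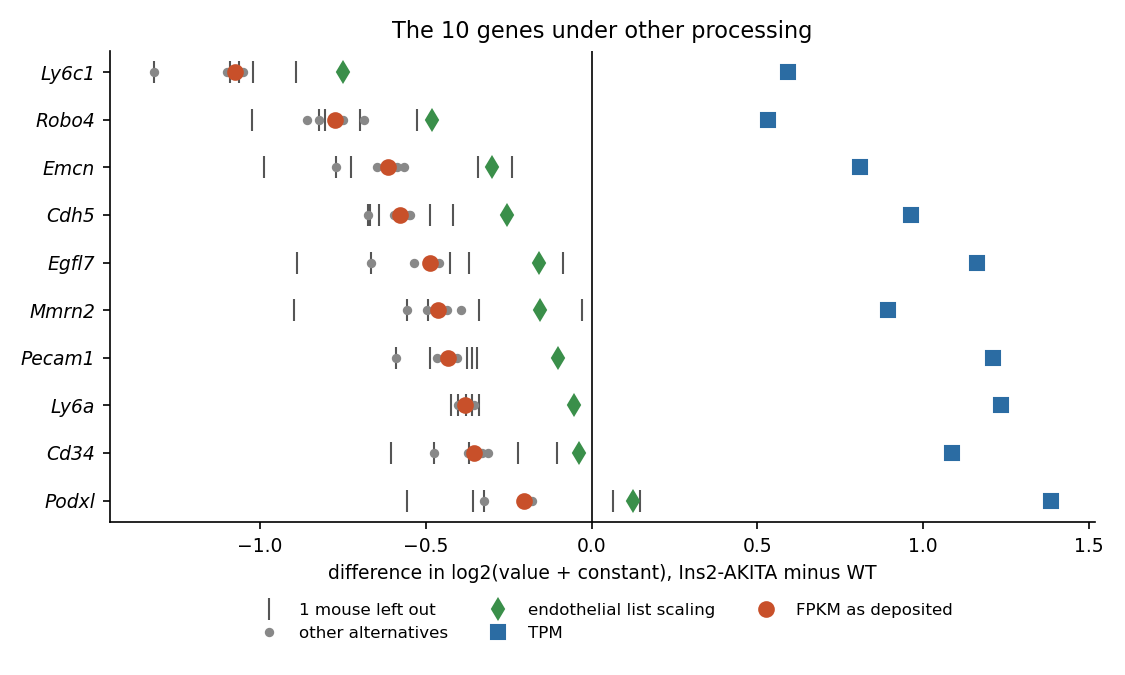
Difference between Ins2-AKITA and WT mice on the log2 scale (horizontal axis) for each of the 10 genes with FPKM as deposited, with 1 mouse left out, with endothelial list scaling, as TPM and with the other alternatives. TPM moves all 10 genes above 0, endothelial list scaling moves *Podxl* to 0.12, and without TPM *Ly6c1* ranges from -1.32 to -0.75.

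Of the alternatives in that plot other than TPM, 9 give a difference of their own. The filters, the constant prior variance and the restriction to protein-coding genes leave it as it was, and the replicate block gives that of leaving out WT mouse 3. In these 9, the difference stayed below 0 in each for every gene but *Podxl*, which was below 0 in 6 of 9. *Ly6c1* was never nearer to 0 than -0.75 and *Robo4* never nearer than -0.48 in them. Outside TPM, the lowest adjusted p from limma that any of the 10 genes reached was 0.48, for *Ly6c1*, and as TPM, where the genes were higher, it was 0.28, for *Podxl*.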

How the data were processed

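Brain microvessels captured on PECAM1 beads from 3 WT and 2 Ins2-AKITA mice were sequenced after ribosomal RNA depletion. The authors mapped reads to NCBIM37 with TopHat2 2.0.4, removed duplicates with Picard 1.92 and ran Cufflinks 2.2.1, and they deposited 1 FPKM value per Ensembl gene and mouse. The program behind the values of single mice and the Ensembl release are not given in the sources used here. Removing duplicates can lower short, abundant genes.

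Of 37982 identifiers, 37197 matched GENCODE vM1 of NCBIM37. Values of a shared symbol were summed. Genes with a mean FPKM of at least 1 entered limma 3.58.1 (R 4.3.3; trend, genotype only, two-sided, Benjamini-Hochberg, threshold 0.05) on log2(FPKM + 1), a fit that was tested on simulated data. Python 3.11.15, numpy 2.4.6, pandas 2.3.3, scipy 1.17.1 and biopython 1.88 served for the rest. Depth limits precision, with 1 fragment worth between 0.572 and 1.44 FPKM for *Ly6c1*. Each library is a separate mouse. Replicate numbers name the mice; the labels pair none.

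Alternatives were a constant of 0.1, no filter, a filter at 5 FPKM, TPM, median-ratio, quantile and endothelial list scaling, a constant prior variance, the replicate block and each mouse left out. Protein-coding genes alone, logarithms without a constant and the settings of the overlap count were added after seeing the data.

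The 10 genes and all lists were chosen with earlier results of these data known. Besides the 10 genes, the text names fixed partners and the extremes of the general and barrier endothelial lists. It also names defining markers at 0 and the 5 genes of nearest pattern. *Ly6h* and the other genes named in counts were chosen after their values were seen. So were the other genes named from the platelet, leukocyte, lymphatic and erythroid lists.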

Additional observations from a re-analysis of the deposited data

How the results depend on the processing

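No alternative made any of the 10 genes pass the adjusted threshold in limma. Over all genes, 0 higher and 4 lower calls became 34 and 1 with no filter, 58 and 30 as TPM, 2 and 9 with endothelial list scaling and 1 and 2 with a constant prior variance; lower calls were 2 with a filter at 5 FPKM and 1 among protein-coding genes. With 1 mouse left out, higher calls ranged from 0 to 10 and lower calls from 1 to 6. Where 1 Ins2-AKITA mouse was left, it was assumed to vary like the WT mice.

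The median of the 10 genes was -0.48, between -0.78 and -0.31 with 1 mouse left out, -0.16 with endothelial list scaling and 1.02 as TPM, where 0 of the 10 were lower. Genes without overlap between the genotypes numbered 5, between 5 and 10 with 1 mouse left out (8 without WT mouse 3, against 23.5% of all genes, and 10 without Ins2-AKITA mouse 1, against 27.9%), 1 with endothelial list scaling, against 2.86%, and 0 as TPM, against 0.632%.

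As TPM the sign reversed for *Pecam1* (1.21), *Cdh5* (0.96), *Emcn* (0.81), *Cd34* (1.09), *Egfl7* (1.16), *Robo4* (0.53), *Ly6c1* (0.59), *Ly6a* (1.23), *Mmrn2* (0.89), *Podxl* (1.38), *Clec14a* (0.82), *Cd93* (0.91), *Unc5b* (0.83), *Ptprb* (1.22), *Ly6e* (1.19), *Ramp2* (0.59), *Slc7a5* (1.00), *Endod1* (0.95), *Dohh* (0.96), *Gtpbp3* (0.88), *Ecscr* (0.74) and *5330417C22Rik* (0.87). This follows from the common factor by which TPM rescales a mouse. Without an added constant, the differences relative to the median of the genes above 0 in all mice are by construction the same for both units.

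Endothelial list scaling reversed *Podxl* (0.12), *Clec14a* (0.020), *Cd93* (0.043) and *Unc5b* (0.014). *Podxl* was also reversed without WT mouse 2 (0.065) and without Ins2-AKITA mouse 2 (0.15), *Ctnnd1* without Ins2-AKITA mouse 1 (-0.013) and *Jup* without Ins2-AKITA mouse 2 (-0.30). With 1 mouse left out, *Podxl* ranged from -0.56 to 0.15, *Ctnnd1* from -0.013 to 0.56 and *Jup* from -0.30 to 0.45. *Podxl2*, near 0, turned to -0.065 with quantile normalization, -0.037 with the replicate block and without WT mouse 3, -0.044 without WT mouse 2 and -0.16 without Ins2-AKITA mouse 1, and was 0.17 without Ins2-AKITA mouse 2. The causes were not tested.

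With the replicate block, 0 genes were higher and 5 lower, 0 of the 10 genes were called and their median was -0.63. WT mouse 3 has no partner and adds nothing to the difference in that fit. Deviations of same-numbered mice from their genotype means correlated at 0.051 (mice 1) and -0.034 (mice 2) across genes; with 2 Ins2-AKITA mice, whose deviations are opposites, this cannot show a pairing.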
